A study of Homo sapiens with 6 samples.

Results

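Cells make cholesterol and unsaturated fatty acids from acetyl-CoA, and the genes for most steps are switched on together by the sterol regulatory element-binding proteins (SREBPs). These are transcription factors made as precursors in the membrane of the endoplasmic reticulum. When sterols are scarce, the escort protein SCAP carries them to the Golgi, where proteases release the active part, and when sterols are plentiful, INSIG proteins hold SCAP and its cargo back. SREBF2 encodes the form best known for cholesterol synthesis and SREBF1 the forms best known for fatty acid synthesis. The mRNAs of 31 genes of this pathway were examined among 36415 genes with summed reads. They comprised 5 regulators, 7 genes of the mevalonate steps, 11 of the squalene and sterol steps, 1 sterol carrier and 7 of the fatty acid steps. Membership followed a list of gene symbols by function, with no threshold on a measured value, and each of the 31 symbols matched 1 gene of the GENCODE release 44 annotation. Other enzymes and targets of the pathway were not analysed here.

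All libraries came from HCT116 MCM2-mAID cells, a human colorectal carcinoma cell line, established in culture, whose replicative helicase subunit MCM2 carries a mini auxin-inducible degron. Auxin, here 3-indoleacetic acid at 500 µM, leads to degradation of the tagged protein. The 3 auxin libraries and the 3 libraries from cells given the solvent dimethyl sulfoxide (DMSO) were made, per the study, from synchronised cells sorted in G1 phase. Both groups carried the degron, so effects of auxin itself and of MCM2 loss cannot be told apart. The comparison asks which mRNAs differ once MCM2 has been degraded. The study calls the replicates independent but does not say whether each was a separate culture, so p-values describe the spread between libraries.

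The libraries held between 52.5 and 68.4 M estimated counts. MCM2 mRNA lay between 343 and 389 CPM (counts scaled to a common library size) in the 6 libraries (log2 fold change -0.06 ± 0.05 SE, adjusted p = 0.557 by edgeR), which checks no label because auxin acts on the protein. Of 6 colon epithelial markers, 5 were well expressed and VIL1 stayed at or below 0.278 TPM (counts per effective length, scaled to a common sum), so this marker was close to absent. The summed level of the 6 epithelial markers was 3690 to 3970 TPM in auxin and 3800 to 4280 TPM in DMSO. Summed markers reached at most 1.29 TPM for leukocytes, 0.372 TPM for endothelium, 0.46 TPM for hepatocytes and 0.488 TPM for adipocytes. Fibroblast markers summed to 13.3 to 14.8 TPM in auxin and 11.7 to 13.9 TPM in DMSO, and COL1A1 supplied nearly all of it.

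None of the 31 genes passed the threshold for a change on treatment with auxin. The quasi-likelihood test of edgeR was applied to all 15765 genes that passed the low-count filter, all 31 among them, and 0 of the 31 had a Benjamini-Hochberg adjusted p under 0.1. Over all genes tested, 6.78% were called at that threshold. DESeq2 and limma-voom also called 0 of the 31. With replicate number added as a term, edgeR called 8 of the 31 (25.8%), beside 30.9% of all genes tested. An unadjusted p under 0.05 was reached by 6 of the 31 (19.4%), beside 21.1% of all genes tested, with 3 of the 6 higher and 3 lower in auxin. The libraries of the groups did not overlap for 5 of the 31 genes (16.1%), beside 26.7% of all genes tested. The shares given here were lower among the 31 genes, but this did not hold in every fit. With trends of effective length and GC content removed, 6.45% of the 31 were called, beside 4.99% of all genes tested. With the length trend alone removed it was 3.23%, beside 4.1%. These shares rest on few genes, and the differences were not tested.

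The estimates were small in both directions. Log2 fold changes, auxin minus DMSO, ran from -0.20 for TM7SF2 to 0.15 for HSD17B7, with 12 above 0 and 19 below. Their median was -0.02, beside 0.01 over all genes tested. The median size of the change, regardless of direction, was 0.06 on the log2 scale for the 31 genes and 0.10 for all genes. The 31 genes also had a smaller median SE (0.05 beside 0.07) and a higher median level (27.4 beside 9.46 TPM). How far this accounts for the smaller sizes was not tested. For 27 of the 31 the 95% interval lay within 1.2-fold in either direction, and for all 31 it lay within 1.5-fold. These intervals bound what the comparison leaves possible for each gene and do not show that the groups were equal. Libraries of 1 group agreed closely, with a pooled SD of log2 CPM between 0.02 and 0.15 and a median of 0.06, beside 0.09 for all genes.

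**Figure D1:**
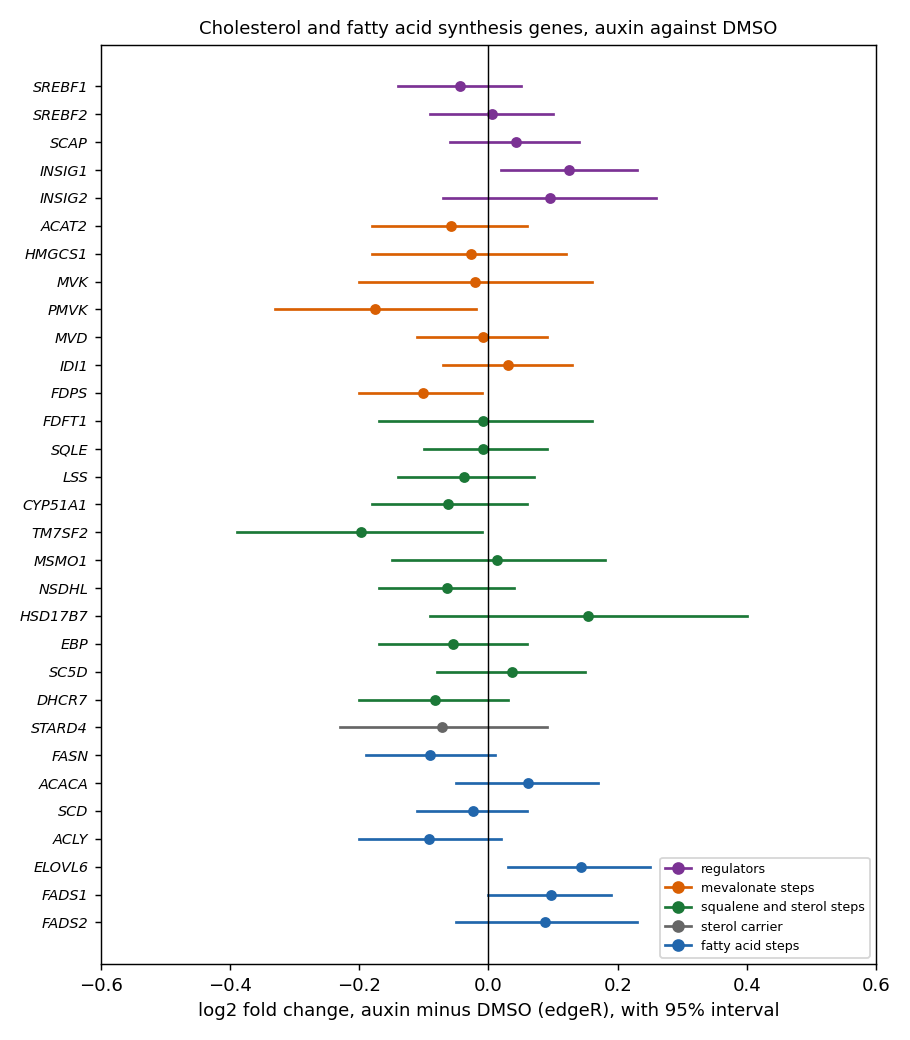
Log2 fold change (auxin minus DMSO, horizontal axis) of each of the 31 genes, coloured by role; points are edgeR estimates from 3 auxin and 3 DMSO libraries and lines are 95% intervals. The estimates lie between -0.20 and 0.15, and the outermost interval bounds are -0.39 for TM7SF2 and 0.40 for HSD17B7.

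None of the 5 regulators was called, and SREBF2 had the estimate nearest to 0. SREBF2 (chromosome 22, 41833105 to 41907306, plus strand, hg38) was at 117, 107 and 117 CPM in auxin and 114, 113 and 112 CPM in DMSO. The auxin libraries enclosed all DMSO libraries, and the log2 fold change was 0.01 ± 0.05 SE (adjusted p = 0.967, edgeR). SREBF1 (chromosome 17, 17810399 to 17837002, minus strand) stood at 124, 125 and 125 CPM in auxin and at 127, 136 and 123 CPM in DMSO. Its auxin libraries were within the range of the DMSO libraries, and the 95% interval of the fold ran from 0.906 to 1.04 (adjusted p = 0.613, edgeR). Both genes host a microRNA of the miR-33 family in the annotation, MIR33A in SREBF2 and MIR33B in SREBF1.

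SREBF2 was the only gene of the 31 whose promoter in the RefSeq table held the sterol regulatory element by its 9-letter form TCACNCCAC, on either strand, in the window from 250 bases before to 50 bases after a transcription start. The table (GRCh38.p14) held 37 promoters for 27 of the 31 genes, and 1.13% of all 35116 promoters held these letters. The element is a binding site for SREBP itself, which is why the sequence is shown. It covers the 250 bases before the start, chr22:41832855-41833104, plus strand, 5′ to 3′. Capitals mark the sterol element (133 to 125 bases before the start), a CCAAT box read on the opposite strand and GC boxes (GGGCGG) on either strand.
SREBF2 promoter: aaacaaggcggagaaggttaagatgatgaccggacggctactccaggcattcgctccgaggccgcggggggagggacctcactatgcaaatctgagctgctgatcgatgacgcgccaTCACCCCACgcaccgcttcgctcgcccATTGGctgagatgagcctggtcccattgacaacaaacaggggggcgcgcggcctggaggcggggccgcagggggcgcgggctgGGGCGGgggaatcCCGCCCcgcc
The CCAAT box (CCAAT, either strand), a site of the factor NF-Y, was found in 24 of the 37 promoters (64.9%), beside 34.6% of all promoters. The GC box (GGGCGG, either strand), a site of SP1, was found in 33 of the 37 (89.2%), beside 45.0% of all. None of these motifs overlaps another by its letters in the printed stretch. The set of all promoters was not limited to expressed genes, and some genes of the pathway hold several promoters. A match describes the letters only, and a window without a match says nothing about binding.

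SCAP, the escort of the precursors, was at 76.9, 72.6 and 75.5 CPM in auxin and 71.5, 75.5 and 71.5 CPM in DMSO, and the groups overlapped (log2 fold change 0.04 ± 0.04 SE, adjusted p = 0.624, edgeR). INSIG1, which retains SCAP and is itself an SREBP target, was at 36.4, 35.2 and 36.0 CPM in auxin and at 32.2, 32.7 and 33.7 CPM in DMSO. Each auxin library was above each DMSO library. The difference was 1.09-fold with a 95% interval from 1.01 to 1.17 and missed the threshold over all genes (adjusted p = 0.165, edgeR). INSIG2, its relative, lay at 14.6, 13.9 and 13.8 CPM in auxin and 12.1, 13.2 and 14.4 CPM in DMSO. The lowest library was a DMSO library, and the highest DMSO library was above 2 of the 3 auxin libraries. Its log2 interval, -0.07 to 0.26, was the widest among the regulators (adjusted p = 0.501, edgeR).

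**Figure D2:**
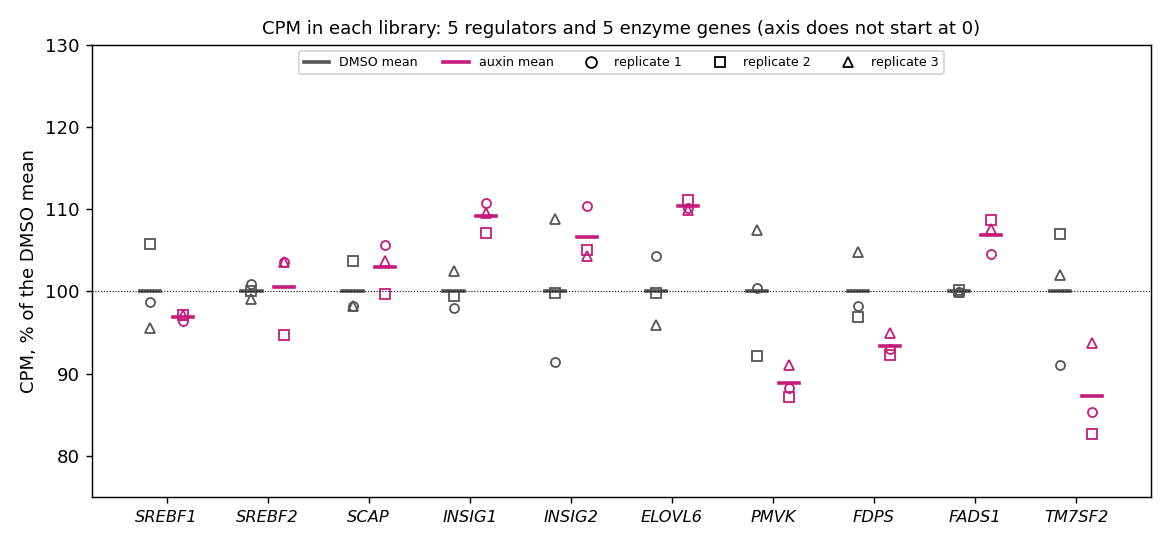
CPM of each library as a percentage of the DMSO mean of the same gene (vertical axis, not starting at 0), for the 5 regulators and for the 5 enzyme genes with the smallest p; symbols mark the replicate number and bars the group means. Groups do not overlap for INSIG1, ELOVL6, PMVK, FDPS and FADS1, and they overlap for the other genes drawn.

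The 7 genes of the mevalonate steps take part in turning acetyl-CoA into farnesyl diphosphate, from which sterols, dolichol, ubiquinone and protein prenyl groups are made. Their log2 fold changes ran from -0.18 to 0.03, with 1 above 0, and none was called. PMVK (phosphomevalonate kinase) was at 16.1, 15.9 and 16.6 CPM in auxin and at 18.3, 16.8 and 19.6 CPM in DMSO. Every auxin library lay below every DMSO library, although the closest pair differed by little beside the DMSO spread. The fold was 0.885 with a 95% interval from 0.797 to 0.983 (adjusted p = 0.176, edgeR). FDPS, which makes farnesyl diphosphate, stood at 141, 140 and 144 CPM in auxin and at 149, 147 and 159 CPM in DMSO. Here too the groups did not overlap, and the fold of 0.932 (0.873 to 0.996) did not pass (adjusted p = 0.211, edgeR).

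HMGCS1, the synthase that starts the route proper, had a mean of 72.5 ± 5.43 CPM with auxin and 73.8 ± 5.74 CPM with DMSO (SD, n = 3 each). Replicate 1 was the highest library of HMGCS1 in both groups, with 78.5 CPM under auxin and 80.4 CPM under DMSO, while the other libraries lay between 68.1 and 71.2 CPM. Replicate 1 was the highest of its group in both groups for 7 of the 31 genes (22.6%), beside 22.0% of all genes tested. It was the lowest in both for 9 of the 31 (29.0%), beside 22.1% of all. The remaining mevalonate genes had overlapping groups. ACAT2 (acetoacetyl-CoA formation), MVK (mevalonate kinase), MVD (mevalonate diphosphate decarboxylase) and IDI1 (isopentenyl diphosphate isomerase) had log2 fold changes of -0.06, -0.02, -0.01 and 0.03, with adjusted p from 0.589 to 0.94 (edgeR).

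The 11 genes of the squalene and sterol steps take part in making squalene and in turning it into cholesterol. None was called and the groups overlapped for all 11, with log2 fold changes from -0.20 to 0.15 and a median of -0.04. TM7SF2, a sterol reductase that acts on carbon 14, was at 7.97, 7.73 and 8.76 CPM in auxin and 8.51, 10.0 and 9.53 CPM in DMSO. One auxin library was above the lowest DMSO library. The fold was 0.873 (95% interval 0.765 to 0.996, adjusted p = 0.225, edgeR), the lowest of the 31. The annotated span of TM7SF2 overlaps that of VPS51 on the same strand. Whether their transcripts share sequence, and so reads, was not tested. HSD17B7, a reductase that takes part in removing methyl groups from the ring, had the highest log2 fold change, 0.15 ± 0.11 SE, but also the widest interval (fold 0.941 to 1.32, adjusted p = 0.451, edgeR). It was the scarcest of the 31 genes, at 4.68 to 6.16 CPM, and it has a closely similar pseudogene copy with which reads may be shared.

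SQLE, the squalene epoxidase and a slow step of the route, had a mean of 55.0 ± 1.01 CPM with auxin and 55.3 ± 1.24 CPM with DMSO (SD, n = 3 each). Its interval, 0.931- to 1.06-fold, was among the narrowest. LSS (lanosterol synthase), CYP51A1 (lanosterol demethylase), NSDHL, EBP and DHCR7, the reductase of the last step in one branch, had log2 fold changes of -0.04, -0.06, -0.06, -0.06 and -0.08. MSMO1 and SC5D were at 0.01 and 0.04. For these 7 genes adjusted p lay between 0.372 and 0.945 (edgeR). CYP51A1 overlaps AKAP9 on the opposite strand, and the strand setting of the assignment is not given in the sources used here. The annotated spans of CYP51A1, EBP and ACACA also overlap other genes on their own strand, which a strand setting would not separate.

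FDFT1, squalene synthase, is uncertain in these data. Its gene sum was 8.02 to 8.93 CPM, and its log2 difference was -0.01 ± 0.08 SE (adjusted p = 0.968, edgeR). The main annotated transcript, FDFT1-201, is 2035 bases long and was listed at 0 estimated counts in all 6 libraries. Among the listed transcripts without a match in the annotation, 2 had the same length of 2035 bases and at least 100 estimated counts in every library. These 2 held identical estimates in each library, 2910.6, 3123.8 and 3144.8 in auxin and 3208.4, 2485.6 and 3158.7 in DMSO. The gene sum of FDFT1 was 416.7 to 579.7 estimated counts. Which gene these 2 transcripts belong to was not tested, so the level given for FDFT1 may be too low. The main transcript was at 0 for 1 other gene, FADS2, for which no unmatched transcript of the same length passed 100 counts. Such a length match was also present for SREBF2, INSIG1, MVD, TM7SF2, HSD17B7 and EBP, whose main transcripts did have reads. An equal length alone therefore does not identify a gene. Whether the sums of these genes miss reads was not tested. STARD4, a carrier of sterols between membranes, had a mean of 21.4 ± 1.09 CPM with auxin and 22.5 ± 1.99 CPM with DMSO (SD, n = 3 each, adjusted p = 0.612, edgeR).

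Among the 7 fatty acid genes, 4 estimates were above 0 and 3 below, and none was called. ELOVL6, which elongates saturated fatty acids, had the smallest p of the 31 genes. It was at 33.9, 34.2 and 33.8 CPM in auxin and at 32.1, 30.7 and 29.5 CPM in DMSO. The auxin libraries were nearly equal and all lay above the DMSO libraries. The fold was 1.10 (95% interval 1.02 to 1.19, adjusted p = 0.141, edgeR).

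FADS1, the delta-5 desaturase, stood at 55.0, 57.2 and 56.6 CPM in auxin and 52.6, 52.7 and 52.6 CPM in DMSO. The groups did not overlap, with a fold of 1.07 (adjusted p = 0.22, edgeR). FADS2, the delta-6 desaturase, had overlapping groups and a log2 fold change of 0.09 ± 0.06 SE. The annotated spans of FADS1 and FADS2 overlap on opposite strands, and FADS2 also overlaps FEN1, a replication and repair gene, on its own strand. These are overlaps of whole genes. Whether their transcripts share sequence, and so reads, was not tested.

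FASN (fatty acid synthase), ACLY (which supplies cytosolic acetyl-CoA) and SCD (which introduces the first double bond) were the most abundant of the 31 mRNAs in CPM. FASN had a mean of 1100 ± 43.1 CPM with auxin and 1180 ± 35.6 CPM with DMSO (SD, n = 3 each). The 3 auxin libraries were 1150, 1090 and 1070 CPM and the 3 DMSO libraries 1210, 1140 and 1190 CPM, so only the highest auxin library reached into the DMSO range. The log2 fold change was -0.09 ± 0.04 SE (adjusted p = 0.278, edgeR). ACLY was at 388 ± 14.9 CPM with auxin and 414 ± 23.8 CPM with DMSO (adjusted p = 0.322), and SCD at 562 ± 6.93 and 571 ± 14.6 CPM (adjusted p = 0.776; SD, n = 3 each, edgeR). ACACA, which makes malonyl-CoA, showed 0.06 ± 0.05 SE on the log2 scale (adjusted p = 0.542). Over all genes tested, fold change and effective length moved together (Spearman rho 0.30 across genes, which are not independent, beside 0.15 across the 31). With the length trend of each library removed, FASN was called lower (log2 fold change -0.19, adjusted p = 0.0362, edgeR). FASN was then the only gene of the 31 called (3.23%), beside 4.1% of all genes tested. With trends of length and GC content removed, SCD (-0.13, adjusted p = 0.0862) and ACLY (-0.16, adjusted p = 0.0938) were called lower and FASN was not. SCD and ACLY made up 6.45% of the 31, beside 4.99% of all genes called in that fit.

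Levels per length ordered the genes differently from the fold changes. TPM divides counts by effective length, so it can be compared between genes. Mean TPM over the 6 libraries ran from 271 for FASN to 4.92 for HSD17B7, a 55.1-fold range, and 27 of the 31 genes lay above the median of all genes tested (9.46 TPM). FASN was followed by FDPS (195 TPM), SCD (139 TPM), ACLY (132 TPM), EBP (93.6 TPM) and MVD (91.0 TPM). Neighbours in this order overlapped over the 6 libraries in 23 of 30 cases, for instance SCD with ACLY, EBP with MVD, and all neighbours from IDI1 down to LSS. The genes above and below the gaps were FASN, FDPS and SCD, then ACLY and EBP, MVD and SREBF1, SREBF1 and IDI1, LSS and INSIG2, and FDFT1 and HSD17B7. The place of FDFT1 in this order is uncertain, because its summed level may be too low. Of the regulators, SREBF1 had 77.1 TPM, SREBF2 30.7, SCAP 27.8, INSIG1 19.4 and INSIG2 12.9.

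**Figure D3:**
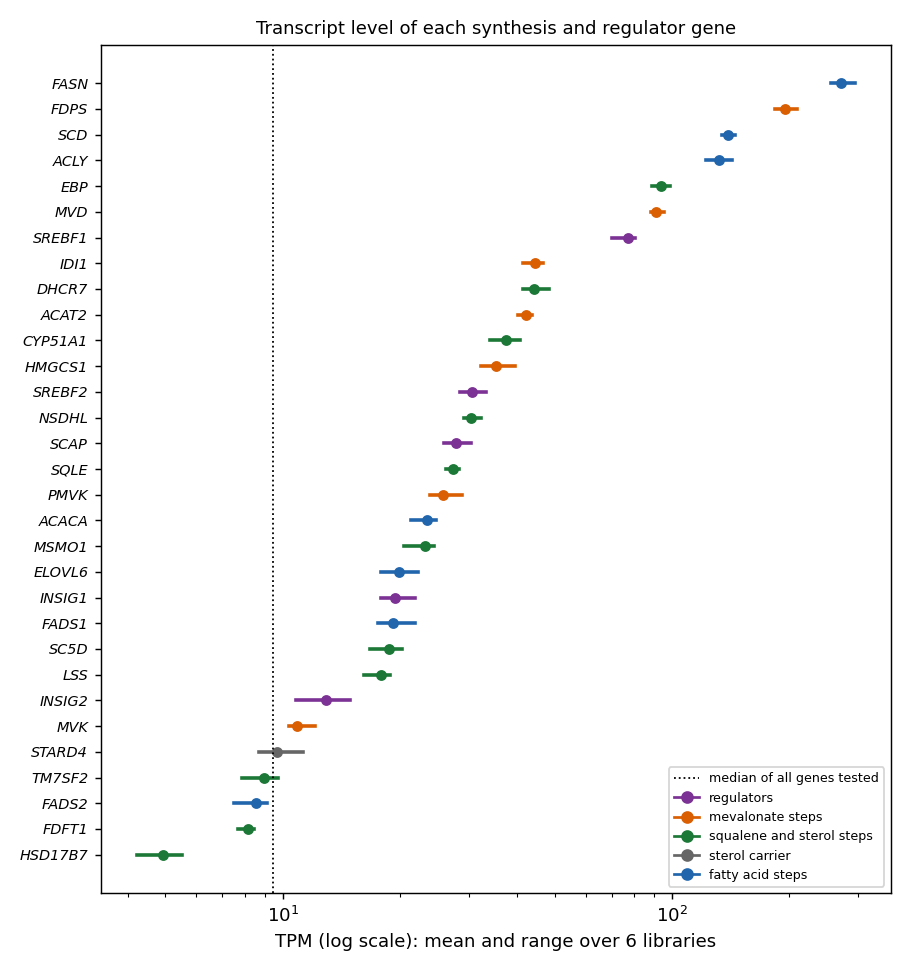
TPM of each gene (horizontal axis, log scale) over the 6 libraries, coloured by role; points are means, lines run from the lowest to the highest library and the dotted line is the median of all genes tested, 9.46 TPM. FASN is highest at 271 TPM and HSD17B7 lowest at 4.92 TPM, and neighbours overlap in 23 of 30 cases. The level drawn for FDFT1 may be too low.

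The main annotated transcript did not lead for every gene. PMVK and SCD each had 1 listed transcript. ACAT2-201 held 97.7% to 98.9% of the TPM of its gene and SREBF2-201 held 86.2% to 90.1%. SREBF1 was divided over 24 listed transcripts, and its leading one, SREBF1-201, held 17.4% ± 1.11 with auxin and 18.3% ± 1.78 with DMSO (SD, n = 3 each). For INSIG2 and ELOVL6 the transcript leading by TPM had no defined coding sequence in the annotation. INSIG2-205 held 34.6% ± 5.58 with auxin and 27.2% ± 2.47 with DMSO, and ELOVL6-207 held 49.5% ± 6.41 and 48.9% ± 4.55 (SD, n = 3 each). These are shares of TPM and not of reads. In CPM both were scarce, INSIG2-205 at 0.907 to 1.62 beside a gene sum of 12.1 to 14.6. ELOVL6-207 lay at 0.402 to 0.607 CPM beside a gene sum of 29.5 to 34.2 CPM. The summed TPM of both genes therefore rests in part on few reads.

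The study tested single transcripts, so the 348 listed transcripts of the 31 genes were tested too. The filter kept 207 of them, and 0 were called, beside 0.00256% of all 78049 transcripts tested (2 transcripts). An unadjusted p under 0.05 was reached by 7 of the 207 (3.38%), beside 6.57% of all transcripts tested, limma-voom also called 0, and the lowest adjusted p was 0.421 (edgeR). FDFT1-208, a coding transcript, had the smallest p, at 0.82, 1.08 and 0.718 CPM in auxin and 1.92, 2.23 and 1.67 CPM in DMSO. The groups did not overlap for this transcript (log2 fold change -1.15 ± 0.23 SE, adjusted p = 0.421), which belongs to the gene with the uncertain sum.

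FASN-202, a transcript with a retained intron, was at 9.20, 8.30 and 9.17 CPM in auxin and 11.8, 13.9 and 10.4 CPM in DMSO. SREBF1-204, annotated as a target of nonsense-mediated decay, was at 15.6, 14.9 and 14.2 CPM in auxin and 16.6, 18.8 and 19.4 CPM in DMSO. In both transcripts all auxin libraries were below all DMSO libraries, with adjusted p of 0.64 and 0.666 (edgeR). TM7SF2-216 (log2 fold change -1.35 ± 0.47 SE), STARD4-209 (1.24 ± 0.43) and MVK-201 (-0.76 ± 0.29) complete the 6 with the smallest p, and their adjusted p lay between 0.716 and 0.733. These 3 were scarce, with TM7SF2-216 and STARD4-209 at or below 1.12 CPM in every library.

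The 4 related lists cover genes around this pathway, 49 in all, of which 48 were tested and 3 (6.25%) were called, 1 higher and 2 lower in auxin, a share close to the 6.78% of all genes tested. Their median log2 fold change was close to 0, at -0.002. All 3 called genes belong to the list of fatty acid supply, elongation and activation, in which 18 of 19 genes were tested and THRSP was too scarce. ACACB, the carboxylase isoform tied to the control of fatty acid oxidation, was at 8.05, 7.84 and 7.90 CPM in auxin and 6.82, 6.43 and 5.90 CPM in DMSO. It was higher in every auxin library and rose 1.24-fold (95% interval 1.10 to 1.40, adjusted p = 0.0693, edgeR). MID1IP1, which activates acetyl-CoA carboxylase, was at 25.5, 23.2 and 22.8 CPM in auxin and 28.0, 27.3 and 27.6 CPM in DMSO. The groups did not overlap, and MID1IP1 fell to 0.861-fold (0.788 to 0.941, adjusted p = 0.0773, edgeR). ELOVL1, an elongase of very long chains, was at 70.3, 69.2 and 70.8 CPM in auxin and 74.9, 78.7 and 80.5 CPM in DMSO, without overlap, and fell to 0.899-fold (adjusted p = 0.0886, edgeR).

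DESeq2 and limma-voom called the same 3 genes. Leaving out auxin replicate 2 or 3, or DMSO replicate 2 or 3, left 0 of the 3 called, and leaving out auxin replicate 1 left MID1IP1. The number of all genes called also fell in those 4 fits, from 1069 to between 183 and 336. The log2 fold changes stayed near the values with all libraries, at 0.25 to 0.35 for ACACB, -0.19 to -0.13 for ELOVL1 and -0.27 to -0.18 for MID1IP1 over the 6 left-out libraries. In the fits that lost each call adjusted p was 0.10 to 0.227 for ACACB, 0.119 to 0.306 for ELOVL1, and 0.137 to 0.283 for MID1IP1 (edgeR). With length trends removed MID1IP1 alone stayed called, and with effective length offsets or on the TPM scales 0 of the 3 did.

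In the list of sterol transport, storage and sensing, 0 of 13 genes were called by edgeR, DESeq2 or limma-voom, and 3 had an unadjusted p under 0.05 in edgeR. DESeq2 gave no adjusted p for ABCA1. ABCA1, which exports cholesterol and is switched on by the sterol-sensing receptors NR1H2 and NR1H3, was at 0.525, 0.493 and 0.590 CPM in auxin and 0.292, 0.321 and 0.363 CPM in DMSO. The groups did not overlap, but the level was low, and the fold of 1.64 (95% interval 1.17 to 2.32) missed the threshold (adjusted p = 0.112, edgeR). ABCG1, an exporter under the same receptors, was at 2.43, 2.03 and 2.84 CPM in auxin and 1.43, 1.87 and 2.06 CPM in DMSO. One auxin library lay below the highest DMSO library (log2 fold change 0.45 ± 0.17 SE, adjusted p = 0.172, edgeR).

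In the list of SREBP transport and cleavage, 0 of 9 genes were called by any of these tools and 0 had an unadjusted p under 0.05. MBTPS1, the site-1 protease that first cuts the precursors, had a fold of 1.03 (0.976 to 1.09, adjusted p = 0.50, edgeR). In the isoprenoid branch, 0 of 8 were called, and 1 had an unadjusted p under 0.05. FNTB, a farnesyltransferase subunit, had a fold of 0.894 (0.811 to 0.986, adjusted p = 0.181), and PGGT1B, a subunit of an enzyme that adds geranylgeranyl groups, had 0.968 (adjusted p = 0.745, edgeR).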

How the data were processed

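Poly(A)-selected, strand-marking libraries were sequenced in paired ends and assigned by the authors with kallisto to hg38 transcripts, whose release is not given in the sources used here. The deposited estimated counts, given per transcript with lengths, were unnormalised, and they enter without the resampled estimates that sleuth uses. Of 199240 transcripts, 178869 (89.8%) matched GENCODE release 44 and held 96.2% to 96.3% of each library's counts. Unmatched transcripts were left out of genes. Estimated counts were summed per gene, rounded and tested with edgeR 4.0.16 (R 4.3.3; quasi-likelihood, robust, TMM, minimum count 10, minimum total 15), with treatment as the only term and a threshold of 0.1, as in the study. Transcripts were tested likewise. CPM uses TMM-scaled library sizes. Alternatives were DESeq2 1.42.0, limma 3.58.1 (voom, and log2 TPM plus 1 or 0.1), other filters, length and GC corrections, a replicate block and leaving out each library. Precision is limited by 3 libraries a group of 52.5 to 68.4 M counts.

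All 31 genes are named; from the 4 related lists, called genes and the 2 with the smallest p of each; of transcripts, called ones and the 6 with the smallest p. A gene that this rule names is not reported here. Values in every library are given for the regulators and the 6 genes with the smallest p, and FASN, HMGCS1, SQLE and FDFT1 were described further after their values were seen. The members, chosen by function, and the lists were set with earlier results of these data known. Promoters are from RefSeq (GRCh38.p14).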

Additional observations from a re-analysis of the deposited data

How the results depend on the processing

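The count of 0 called among the 31 genes was unchanged with DESeq2, limma-voom, no filter, a minimum count of 50, effective length offsets, log2(TPM + 1), log2(TPM + 0.1) and each left-out library (range 0 to 0). It was 1 with the length trend removed (3.23%, beside 4.1% of all genes tested). With length and GC trends removed it was 2 (6.45%, beside 4.99%). The median of -0.021 became -0.037 with the length trend removed, 0.055 on log2(TPM + 1) and 0.057 on log2(TPM + 0.1), where the median of all genes was 0.053 and 0.073, and it ranged from -0.034 to -0.014 over left-out libraries. Of 15 alternatives without a block, all kept the sign of 13 of the 31 estimates; estimates near 0 changed sign without being called. The count of called transcripts stayed at 0 throughout, left-out libraries included (0 to 0), while all transcripts called numbered 2, but 28 with a minimum count of 50, 8 with limma-voom, 0 with the replicate block and 0 to 1 with a library left out. The 3 called genes of the related lists became 0 with effective length offsets and on either TPM scale, 1 with the length trend and 1 with length and GC trends removed, and 0 to 3 with a library left out. All genes called numbered 1069, but 366 with effective length offsets, 1638 with DESeq2, 452 and 482 on the TPM scales, 647 with the length trend removed and 183 to 1581 with a library left out. The sources do not say whether equal replicate numbers mark a shared batch, and the main fit did not pair them. Deviations from the group means correlated at 0.153, 0.049 and 0.052 between same-numbered libraries 1, 2 and 3. Between unlike numbers they correlated at -0.095 to 0.049, and at -0.095 to -0.065 where 1 of the pair was replicate 1. A shared effect of replicate number was not tested further. Fitting the replicate numbers as a block called 4867 of 15765 genes (30.9%), 8 of the 31 (25.8%) and 12 related genes. Of the 8, INSIG1, ELOVL6 and FADS1 were higher in auxin, and PMVK, FDPS, TM7SF2, FASN and ACLY were lower. These 8 include the 6 genes with the smallest p in the main fit. Both fits use the same 6 libraries, so this overlap is no separate evidence. With the length trend removed as well, the block fit called 9 of the 31 (29.0%, beside 23.9% of all genes, median -0.037) and 13 related genes. With the GC trend also removed, it called 8 (25.8%, beside 24.3% of all genes) and 13 related genes. The block with the length trend removed placed SREBF2 at -0.08 (adjusted p = 0.0998, edgeR), against 0.01. The cause of these shifts was not tested. Scarce genes such as HSD17B7 and ABCA1, and single transcripts, are limited by their counts.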
